A study of Mus musculus with 2 samples.

Results

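The nuclear genes of the mitochondrial respiratory chain were examined in the mesenteric artery of mice, a resistance vessel of the gut, in control arteries and in arteries depolarized with high K+. The genes were chosen by symbol, as protein-coding genes named Ndufa, Ndufb, Ndufc, Ndufs, Ndufv, Uqcr, Cox4i, Cox5 to Cox8 or Atp5, together with Sdha, Sdhb, Sdhc, Sdhd and Cyc1. This gave 89 of the 55573 genes listed, with 39 in complex I, 4 in complex II, 9 in complex III, 18 in complex IV and 19 in ATP synthase (complex V). Assembly factors named Ndufaf and pseudogenes were left out. Both libraries came from wild type C57BL/6 mice aged 10 weeks, and each was prepared from the pooled tissue of 2 mice. The control arteries were kept in 5 mM K+ and the depolarized arteries in 60 mM K+, and 60 min is given for both, although a general treatment label names 60 mM K+ for either library. The sources differ on the handling: the supplementary methods describe control tissue taken from the distal side before the rest was perfused with 60 mM K+, so that the arterial segment and the time in solution cannot be told apart from the K+ concentration. Each condition has 1 library, so differences are given without a replicate check and without p-values.

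In cells, the inner mitochondrial membrane carries 4 electron transfer complexes and the ATP synthase. Complex I oxidizes NADH and complex II oxidizes succinate, complex III passes the electrons to cytochrome c, complex IV reduces oxygen, and the proton gradient that is built up drives ATP synthesis. Most subunits are encoded in the nucleus and imported, and a smaller set of core subunits is encoded in mitochondrial DNA. Arterial smooth muscle relies on this pathway for much of the ATP that is used in tonic contraction.

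The subunit genes had slightly more reads in 60 mM K+ after library scaling. The 84 genes that reached 10 reads over the pair of libraries, the minimum for a ratio, had 82869 reads in 5 mM K+ against 96144 in 60 mM K+. Their summed log2(fold-change), the ratio of 60 mM to 5 mM K+ with library sizes adjusted by the TMM factors of edgeR (a trimmed mean of gene ratios), was 0.32 (95% counting interval 0.30 to 0.33). The median over genes was 0.31, or 1.24-fold, and the middle 50% of genes lay between 0.19 and 0.44, whereas the median of all 14829 genes that reached 10 reads was -0.0047. The intervals are exact Clopper-Pearson intervals on the share of a gene's reads found in the 60 mM K+ library, and they cover counting error only. Scaling by total counts lowers every log2(fold-change) by 0.21, which places the subunit median at 0.11 and the median of all genes at -0.21. The distance between these medians, 0.32, is left as it is by any scaling of whole libraries, and it was 0.16 once the trend with gene length was removed. In bulk tissue, fewer cells of a type and less RNA per cell cannot be told apart.

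With TMM, no subunit gene lay beyond 1 on the log2 scale in either direction, the fold limit used by the study, while Atp5o lay at -1.06 with total counts and at -1.04 with the length trend removed. By comparison, 5.54% of all genes lay above 1 and 5.86% below -1 with TMM. Log2(fold-change) was above 0 for 75 of the 84 subunit genes (49.6% of all genes) with TMM and for 57 (31.4% of all genes) with total counts. It was above 0.5 for 11 subunit genes, or 13.1%, beside 14.8% of all genes, and below -0.5 for 3, or 3.57%, beside 15.9% of all genes. The counting interval lay above 0 for 62 subunit genes (25.0% of all genes) and below 0 for 1 (20.3% of all genes), and it spanned 0 for the other 21. With total counts the interval lay above 0 for 35 subunit genes (13.6% of all genes) and below 0 for 12 (38.4% of all genes). The subunit genes were well covered, with a median of 1530 reads in both libraries together and a range of 28 to 20044, and an interval on 1 side of 0 is reached more easily at such depth. Genes outside the respiratory chain that were under 1 kb and had 500 to 5000 reads numbered 660. With TMM, 407 of these had an interval above 0 and 20 had one below 0, and log2(fold-change) was above 0 for 545. Most short, well-covered genes thus shared the direction of the subunit genes.

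**Figure D1:**
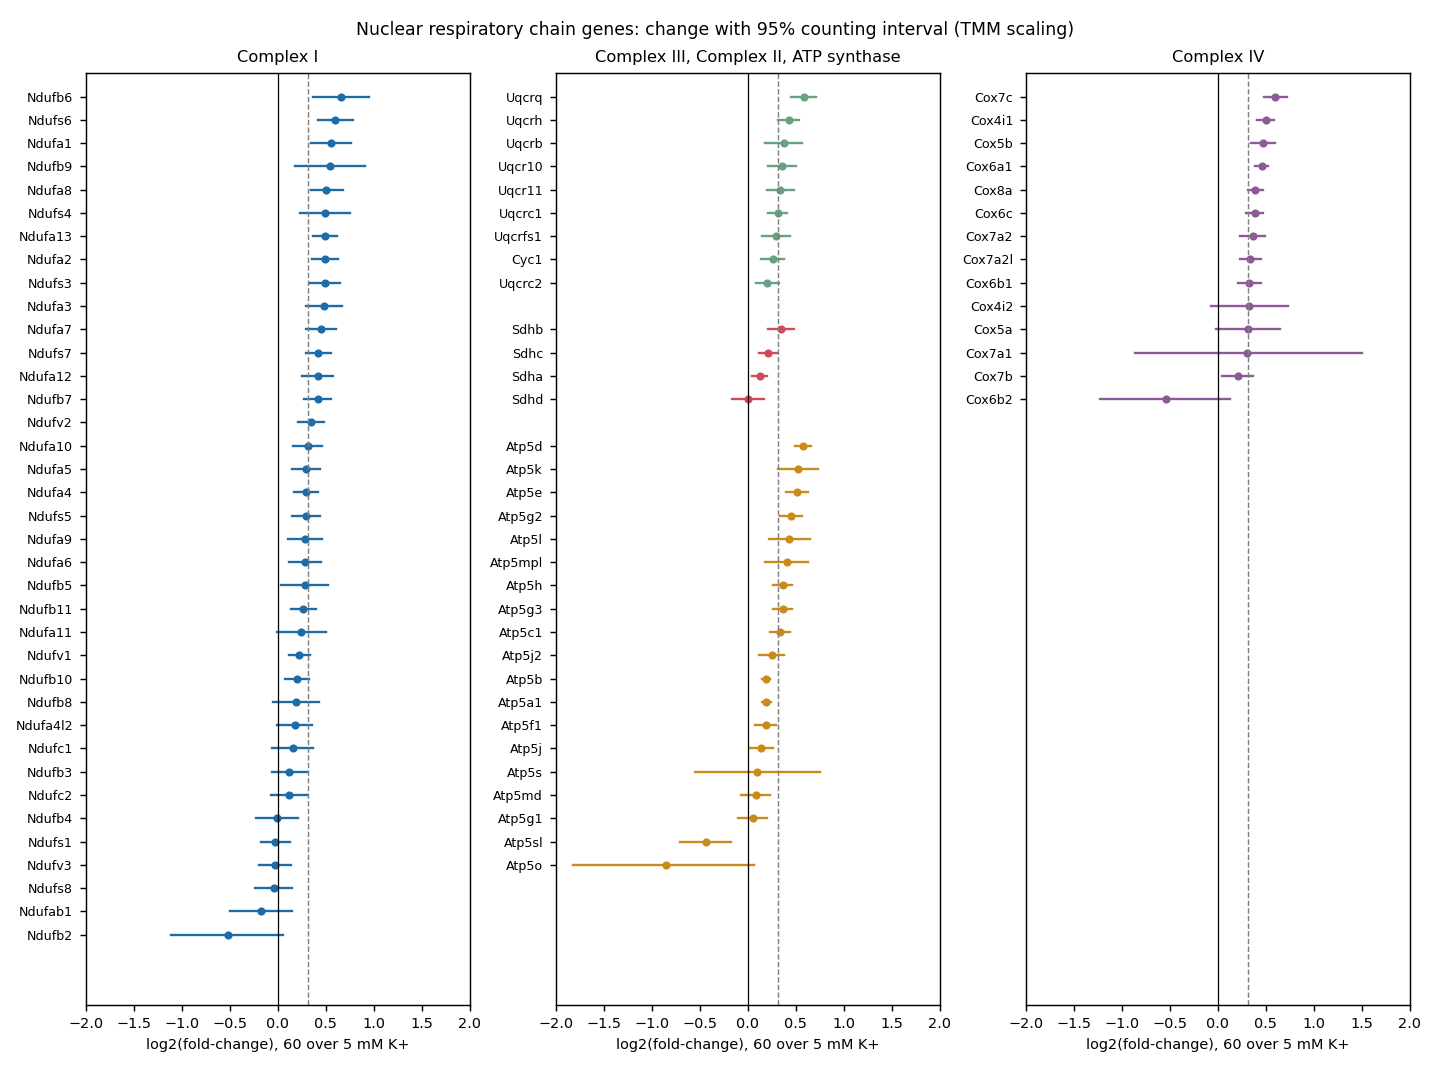
Log2(fold-change) of the nuclear respiratory chain genes (points) with the 95% counting interval (bars), in 60 mM over 5 mM K+ with TMM scaling, ordered within each complex. The dashed line marks the median of 0.31, and total-count scaling moves every point by -0.21, so that 18 genes above 0 here lie below 0 on that scale.

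Complex I couples the oxidation of NADH to proton pumping. Its 38 genes with a ratio had a median log2(fold-change) of 0.29 with TMM and 0.086 with total counts. With TMM, the interval lay above 0 for 26 (25.0% of all genes) and below 0 for none of them (20.3% of all genes). It also lay above 0 for 407 of the 660 genes outside the chain that were under 1 kb and had 500 to 5000 reads. Per length, Ndufb10, a membrane arm subunit, stood at 163 and 162 FPKM (fragments per kilobase of gene, scaled by the authors to the library total), the highest level of complex I in 5 mM K+. The nuclear core subunits carry the flavin, the iron-sulfur clusters and the quinone site. Ndufs3, a core subunit of the hydrophilic arm, went from 598 to 785 reads, with log2(fold-change) at 0.49 (0.34 to 0.65). Ndufs7, which holds the terminal iron-sulfur cluster, went from 863 to 1079 reads and had a log2(fold-change) of 0.42 (0.29 to 0.55).

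Of the NADH-oxidizing module, the core subunits Ndufv1, Ndufv2 and Ndufs1 had smaller values than Ndufs3. Ndufv1, which binds NADH and the flavin, had 1264 reads in 5 mM K+ against 1378 in 60 mM K+, and its log2(fold-change) was 0.23 (0.11 to 0.34). Its partner Ndufv2 went from 815 to 967 reads at 0.35 (0.21 to 0.48). Ndufs1, the largest iron-sulfur subunit of this module, went from 743 to 681 reads, with a log2(fold-change) of -0.02 (-0.18 to 0.13). With TMM, Ndufs8, an iron-sulfur subunit of the quinone-reducing module, likewise showed no difference beyond counting error, with 463 and 420 reads and a value of -0.04 (-0.23 to 0.15). With total counts Ndufs1 lay at -0.23 and Ndufs8 at -0.25, and the interval of each lay below 0. The intervals of Ndufs1 and Ndufs8 did not overlap that of Ndufs3. This order among genes does not depend on the scaling of the libraries.

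The 31 complex I genes outside the core, mostly accessory subunits, had a median log2(fold-change) of 0.29 with TMM. Ndufb6, a membrane arm subunit, had 169 reads in 5 mM K+ against 249 in 60 mM K+, with log2(fold-change) at 0.66 (0.37 to 0.95). Of its annotated exonic bases, 39.0% also belong to another gene, so its read count is uncertain. Ndufs6 followed at 0.60 (424 and 599 reads), then Ndufa1 at 0.56 (331 and 454 reads), Ndufb9 at 0.54 (114 and 155 reads) and Ndufa8 at 0.51 (520 and 690 reads). The lowest complex I value was that of Ndufb2, a membrane arm subunit with few reads, 66 in 5 mM K+ and 43 in 60 mM K+. The log2(fold-change) was -0.52 (-1.11 to 0.06), and its level of 5.04 FPKM in 5 mM K+ was the lowest of complex I. Ndufs4, Ndufa13, Ndufa2, Ndufa3, Ndufa7, Ndufa12 and Ndufb7 lay between 0.42 and 0.50, with intervals above 0. Ndufa10, Ndufa5, Ndufa4, Ndufs5, Ndufa9, Ndufa6, Ndufb5, Ndufb11 and Ndufb10 lay between 0.20 and 0.31, also with intervals above 0 on the TMM scale, and Ndufb10 turned to -0.010 with total counts. The intervals of Ndufa11, Ndufb8, Ndufa4l2, Ndufc1, Ndufb3, Ndufc2, Ndufb4 and Ndufv3 spanned 0 with TMM, at values from -0.03 to 0.25. Ndufab1, the mitochondrial acyl carrier protein, had 181 and 150 reads, with log2(fold-change) at -0.17 (-0.49 to 0.15).

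Complex II, succinate dehydrogenase, is also an enzyme of the citric acid cycle and is encoded in the nucleus alone. It had the lowest median of the 5 complexes, 0.17 with TMM, which became -0.042 with total counts. Sdhb, the iron-sulfur subunit, had 813 reads in 5 mM K+ against 962 in 60 mM K+, with log2(fold-change) at 0.34 (0.21 to 0.48). Sdhc, a membrane anchor, went from 1756 to 1890 reads at 0.21 (0.11 to 0.30) with TMM and -0.0011 with total counts. Sdha, the flavoprotein that binds succinate, went from 2714 to 2760 reads at 0.13 (0.05 to 0.20) with TMM and -0.083 with total counts. The other anchor, Sdhd, had 623 and 581 reads, at 0.0007 (-0.16 to 0.17) with TMM. With total counts it lay at -0.21, with an interval below 0. The interval of Sdhb overlapped that of Sdhc and lay above those of Sdha and Sdhd.

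Complex III, the cytochrome bc1 complex, had the narrowest middle 50% of genes of the 5 complexes, from 0.29 to 0.37. All 9 of its genes had a counting interval above 0 with TMM (25.0% of all genes), and 8 of the 9 had a log2(fold-change) above 0 with total counts (31.4% of all genes). The median was 0.34 with TMM and 0.13 with total counts. Uqcrq, a small subunit, was the highest, with 871 reads in 5 mM K+ against 1215 in 60 mM K+ and a log2(fold-change) of 0.58 (0.45 to 0.71). Uqcrh, the hinge protein that contacts cytochrome c1, was the most abundant per length at 220 and 255 FPKM, and went from 1266 to 1586 reads at 0.43 (0.32 to 0.53). Uqcrb, Uqcr10, Uqcr11 and Uqcrc1 lay between 0.31 and 0.37. The 2 catalytic subunits encoded in the nucleus lay lower than these. Cyc1, which is cytochrome c1, went from 1075 to 1200 reads at 0.26 (0.14 to 0.38). Uqcrfs1, the Rieske iron-sulfur protein, went from 769 to 879 reads at 0.29 (0.15 to 0.44). Uqcrc2, a core protein without a redox centre, was the lowest, with 1071 and 1151 reads, at 0.21 (0.08 to 0.33) with TMM and -0.0033 with total counts.

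Complex IV, cytochrome c oxidase, had a median of 0.35 with TMM and 0.14 with total counts, close to that of complex III. An interval above 0 was found for 10 of the 14 genes with a ratio (25.0% of all genes). Among the short, well-covered genes outside the chain it was found for 407 of 660. Cox7c, a small membrane subunit, had 1029 reads in 5 mM K+ against 1453 in 60 mM K+. The log2(fold-change) was 0.60 (0.48 to 0.72), and 4 near-identical copies of its coding sequence lie elsewhere in the genome, so the division of its reads is uncertain. Cox4i1, the largest nuclear-encoded subunit, went from 1867 to 2460 reads at 0.50 (0.41 to 0.59). Cox6a1 had the highest FPKM of complex IV, 478 and 568, and its 2989 and 3825 reads gave 0.46 (0.39 to 0.53). Computed on the length of the coding sequence, Cox8a lay higher in 5 mM K+, at 1079 compared with 841 for Cox6a1. Cox5b, Cox8a, Cox6c, Cox7a2, Cox7a2l and Cox6b1 lay between 0.33 and 0.47, each with an interval above 0 on the TMM scale. At the low end, Cox7b had 597 and 642 reads, at 0.21 (0.04 to 0.37) with TMM and -0.0024 with total counts. Cox6b2 had 50 and 32 reads, with log2(fold-change) at -0.54 (-1.23 to 0.13). Cox5a stood far below the other ubiquitous subunits, at 13.4 and 14.5 FPKM from 144 and 167 reads. For Cox5a, 38.7% of the exonic bases are shared with another annotated gene, and what part this has in its low level was not tested.

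Several complex IV subunits, the ATP synthase c subunit and Ndufa4 exist as isoforms encoded by separate genes, some of them known for particular tissues. In the complex IV families, the forms known from most tissues made up nearly all reads. Cox4i2, known from lung and from the response to low oxygen, held 5.08% (4.16% to 6.15%) of the Cox4i reads in 5 mM K+ and 4.54% (3.77% to 5.42%) in 60 mM K+. The heart and skeletal muscle forms were at or near 0. Cox6a2 had 0 and 5 reads, Cox8b had 5 and 2 reads, and Cox7a1 had 13 and 15 reads, or 0.588% and 0.572% of the Cox7a reads. Their counterparts were far more abundant: Cox8a had 2375 and 2901 reads, Cox7a2 had 897 and 1075 reads, and Cox7a2l, a factor of supercomplex assembly, had 1301 and 1534 reads. Cox7b2 and Cox8c, known from testis, had 0 reads in both libraries, as did a second identifier of Ndufb8. A count of 0 allows up to 3 reads, or 0.266 CPM (reads scaled to a common library size) in 5 mM K+ and 0.286 CPM in 60 mM K+. Cox6b2, another testis form, stood beside 1011 and 1183 reads of Cox6b1 and held 4.71% (3.52% to 6.17%) of the Cox6b reads in 5 mM K+ and 2.63% (1.81% to 3.70%) in 60 mM K+.

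The c ring and the Ndufa4 pair also had several expressed members. Atp5g1, Atp5g2 and Atp5g3 encode the same mature c subunit behind different import signals. Atp5g3 had the most reads, with 1543 and 1850 reads, followed by Atp5g2 with 1096 and 1401 reads and Atp5g1 with 740 and 715 reads. The share of Atp5g1 among these reads was lower in 60 mM K+, 18.0% (16.8% to 19.3%) compared with 21.9% (20.5% to 23.3%), and that of Atp5g2 was 35.3% (33.8% to 36.8%) compared with 32.4% (30.9% to 34.0%), with overlapping ends. The intervals of Atp5g1 did not overlap. The gene lengths behind the FPKM values were 2666 bases for Atp5g1, 640 for Atp5g2 and 772 for Atp5g3. With the trend with gene length removed, log2(fold-change) was 0.15 (0.0018 to 0.30) for Atp5g1 and 0.26 (0.15 to 0.38) for Atp5g2. It was 0.20 (0.10 to 0.30) for Atp5g3, and these intervals overlapped. Atp5g2 has 3 near-identical copies in the genome and Atp5g1 has 1. Ndufa4, counted with complex I by its symbol, encodes a protein that has been assigned to complex IV. It had 956 and 1094 reads, and its relative Ndufa4l2, which is induced by low oxygen and is known from vascular mural cells, had 475 and 501 reads. Ndufa4l2 thus held 33.2% (30.8% to 35.7%) of the reads of this pair in 5 mM K+ and 31.4% (29.1% to 33.8%) in 60 mM K+.

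ATP synthase held the 2 respiratory chain genes with the most reads. Atp5b, the catalytic beta subunit, had 9699 reads in 5 mM K+ against 10345 in 60 mM K+, and Atp5a1, the alpha subunit, had 6744 and 7189 reads. Both genes had a log2(fold-change) of 0.19 with TMM (0.15 to 0.23 for Atp5b and 0.15 to 0.24 for Atp5a1) and values of -0.014 and -0.015 with total counts. Several smaller subunits lay higher. Atp5d, the delta subunit of the central stalk (chromosome 10, 79601377 to 79608563), had 1820 and 2528 reads, with log2(fold-change) at 0.58 (0.49 to 0.66). Atp5k, the e subunit of the membrane part, had 330 and 441 reads at 0.52 (0.31 to 0.73), and Atp5e, the epsilon subunit, had 1050 and 1398 reads at 0.51 (0.40 to 0.63). Atp5g2, Atp5l, Atp5mpl, Atp5h, Atp5g3, Atp5c1 and Atp5j2 lay between 0.25 and 0.46, and Atp5f1 at 0.19 and Atp5j at 0.14, all with intervals above 0 on the TMM scale. The intervals of Atp5md at 0.08 and Atp5g1 at 0.05 spanned 0 with TMM. The median of the 19 genes was 0.25 with TMM and 0.041 with total counts.

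The lowest values of ATP synthase were those of Atp5sl and Atp5o. With TMM, Atp5sl was the single respiratory chain gene with a counting interval below 0, at -0.44 (-0.70 to -0.17) from 292 reads in 5 mM K+ against 201 in 60 mM K+. Despite its name, Atp5sl (also called Dmac2) encodes a protein of complex I assembly and is not a subunit of ATP synthase. Its relative Atp5s had 42 reads in each library. Atp5o, the stalk subunit that confers oligomycin sensitivity, had only 31 and 16 reads, and its log2(fold-change) was -0.85 (-1.82 to 0.06). The annotated Atp5o gene (chromosome 16, 91684643 to 91931932) shares 44.0% of its exonic bases with other genes, and the level of 4.45 FPKM in 5 mM K+ stands beside a median of 110 FPKM for ATP synthase. The part of this overlap in the low count was not tested.

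**Figure D2:**
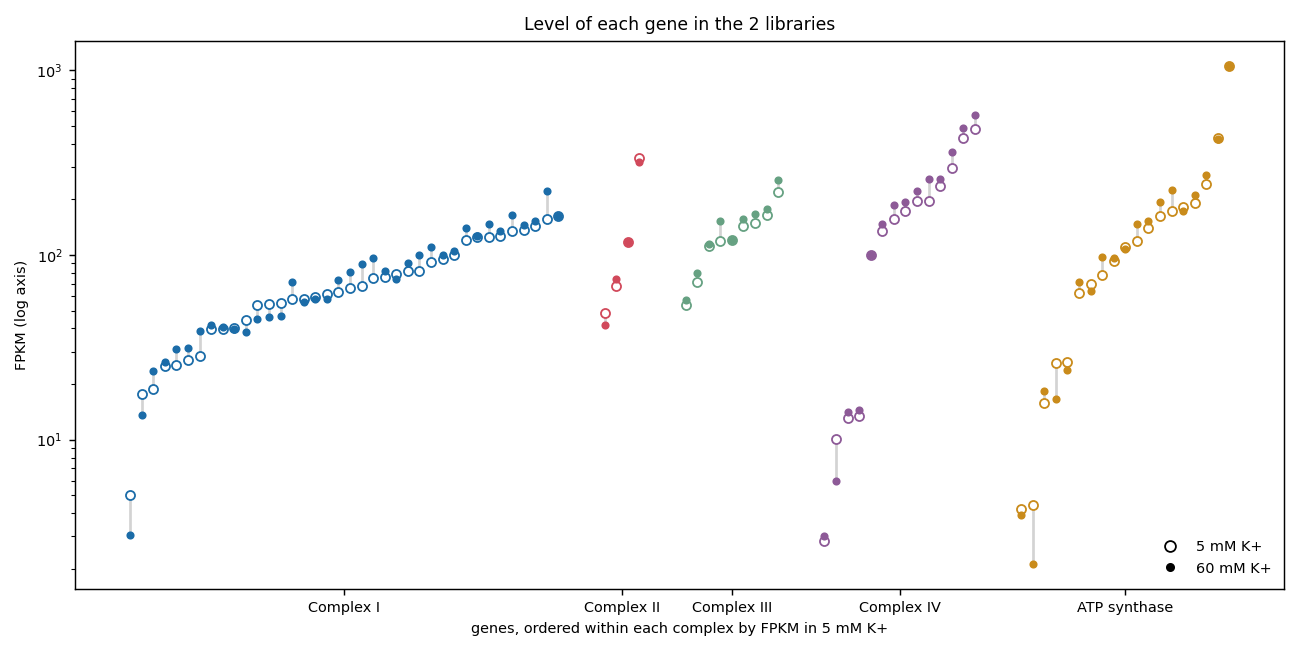
FPKM of each gene in the 5 mM K+ library (open circles) and the 60 mM K+ library (filled circles) on a log axis, ordered within each complex by the level in 5 mM K+. Levels in 5 mM K+ run from 2.83 FPKM for Cox7a1 to 1058 FPKM for Atp5b, and the order of the genes is nearly the same in both libraries (Spearman's rho of 0.99 across the 84 genes, which is a description and not a test). The FPKM values are scaled by total counts.

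Per length, the median level of the subunit genes in 5 mM K+ was 64.6 FPKM for complex I, 92.5 FPKM for complex II, 121 FPKM for complex III, 165 FPKM for complex IV and 110 FPKM for ATP synthase. These levels depend on the gene lengths that the authors used, which can be recovered from counts and FPKM. For 12 genes this length was shorter than the longest annotated coding sequence. Sdha was given 771 bases against a coding sequence of 1995 bases, and Atp5b was given 875 bases against 1590 bases. Computed on coding length, Atp5b in 5 mM K+ stood at 582 in place of 1058, and Sdha at 130 in place of 336. On that scale Cox8a, at 1079, was the most abundant of the 84 genes. Length cancels in the ratio between the libraries of a single gene.

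The share of each complex among all subunit reads is independent of library scaling. Complex IV took 18.4% (18.2% to 18.7%) of these reads in 5 mM K+ and 19.7% (19.5% to 20.0%) in 60 mM K+. The shares of complex II, 7.13% (6.95% to 7.30%) and 6.44% (6.29% to 6.60%), and of ATP synthase, 37.4% (37.1% to 37.8%) and 36.1% (35.8% to 36.4%), were lower in 60 mM K+. The intervals of these 3 complexes did not overlap between the libraries, whereas those of complex I (26.7% and 27.2%) and complex III (10.3% and 10.5%) did. A share is weighted by the genes with the most reads. Of the 31022 and 34679 ATP synthase reads, Atp5b gave 9699 and 10345 and Atp5a1 gave 6744 and 7189. Both genes lay at 0.19 with TMM, below the ATP synthase median of 0.25. The summed ATP synthase reads gave 0.26, compared with 0.32 for all subunit reads. The medians over genes, 0.25 and 0.31, lay in the same order. Complex II and ATP synthase also had the longest genes, with median lengths of 1189 and 943 bases, and complex IV the shortest, with 560 bases.

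Length moved with the change across the whole transcriptome. Among all genes with a ratio, the median log2(fold-change) with TMM was 0.17 for the 2352 genes under 1 kb, 0.04 for genes of 1 to 2 kb and -0.10 for genes of 2 kb or more. The subunit genes are short: 65 of the 84, or 77.4%, were under 1 kb, compared with 15.9% of all genes, and their median length was 770 bases compared with 1796 bases. The median was 0.34 for the 65 short subunit genes and 0.28 for the 19 longer ones. Among genes outside the respiratory chain that were under 1 kb and had 500 to 5000 reads, 660 in number, it was 0.25. After the trend with length over all genes was removed, the subunit median was 0.17, which was 0.16 above that of all genes in place of 0.32. The interval then lay above 0 for 46 genes and below 0 for 5, and the length trend as such has no replicate check. The length classes and the trend use the lengths recovered from FPKM, which for 12 genes were shorter than the longest coding sequence. Sdha, given 771 bases against a coding sequence of 1995, turned from 0.13 to -0.041 on removal of the trend. Values without the trend are limited by these lengths.

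**Figure D3:**
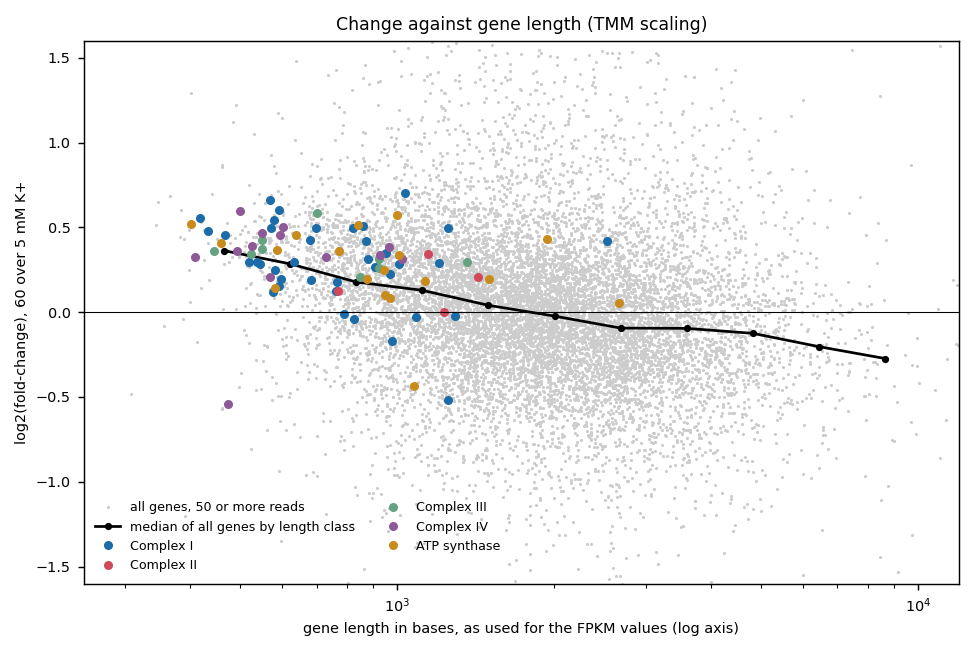
Log2(fold-change) in 60 mM over 5 mM K+ (TMM scaling) against gene length on a log axis, for all genes with at least 50 reads (grey), their median by length class (black) and the nuclear respiratory chain genes (coloured by complex). The black line falls from above 0 in short genes to below 0 in long genes, and most subunit genes lie at its short end; with total counts all points and the line move by -0.21.

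Neighbouring genes had larger differences than Atp5d itself. Atp5d shares 68 exonic bases with Dos on the opposite strand, which went from 751 to 1609 reads at 1.20 (1.07 to 1.33). On the other side of Atp5d, Midn at a distance of 2454 bases had 2542 and 4876 reads, a value of 1.04. The library kit did not mark strand, nor do the sources state stranded counting, so reads of overlapping genes cannot be told apart, and the part of these neighbours in the value of Atp5d was not tested.

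Copies and overlaps were examined for all 84 genes. For 22 genes the coding sequence had at least 1 copy elsewhere in the genome with 95% identity over 80% of its length, and the median log2(fold-change) was 0.35 for these genes and 0.31 for the 62 genes without a copy. Atp5l had 8 such copies and Atp5h had 4. Exons overlapped another annotated gene in 19 genes, and the 65 genes without overlap had a median of 0.33. With TMM, the median was 0.32 for the 50 genes with neither a copy nor an overlap.

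Promoters of respiratory chain genes are known for binding sites of NRF1, of ETS factors such as GABPA and of YY1, and the cAMP response element (CRE) is the site of CREB, the factor followed in the study. RefSeq promoter windows (GRCm38.p6) from 250 bases before to 50 bases after the gene start were matched for 69 of the genes and searched on both strands. The NRF1 letters, GCGCA and GCGC with 1 base of any kind (N) between them, were found in 17 of the 69 (24.6%), beside 10.8% of the 9544 genes with both a promoter window and a ratio and 4.60% of all 32851 windows. YY1 letters, AAGATGGCG, were found in 7 (10.1%, beside 3.33% and 1.40%). The ETS letters CCGGAAGT were found in 5 (7.25%, beside 8.34% and 3.89%). The full CRE, TGACGTCA, was found in 4, namely Ndufa10, Ndufa11, Ndufb2 and Uqcrfs1 (5.80%, beside 3.54% and 1.79%). None of these letter strings contains another of them. The 17 genes with the NRF1 letters had a median log2(fold-change) of 0.31 with TMM, and the 50 with a ratio but without them also had 0.31. The 4 genes with a CRE had a median of 0.27, compared with 0.33 for the other 63.

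The NRF1 letters are shown in their setting for 1 gene of each complex, the most abundant with the motif upstream of the annotated gene, and no complex III gene met this rule. Each stretch of 100 bases was located in mm9 by its sequence and is read 5′ to 3′ on the minus strand, the strand of the gene, with the motif in capitals. They lie at chr4:123395473-123395572 (Ndufs5), chr13:74487732-74487831 (Sdha), chr5:115799075-115799174 (Cox6a1) and chr11:115281320-115281419 (Atp5h).
Ndufs5: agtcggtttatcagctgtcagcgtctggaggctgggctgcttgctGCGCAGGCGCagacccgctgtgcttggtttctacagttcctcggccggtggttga
Sdha: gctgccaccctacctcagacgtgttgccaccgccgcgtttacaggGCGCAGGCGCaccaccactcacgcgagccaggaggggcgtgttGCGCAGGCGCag
Cox6a1: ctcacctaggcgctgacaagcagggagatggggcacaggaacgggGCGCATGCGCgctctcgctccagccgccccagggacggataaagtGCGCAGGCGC
Atp5h: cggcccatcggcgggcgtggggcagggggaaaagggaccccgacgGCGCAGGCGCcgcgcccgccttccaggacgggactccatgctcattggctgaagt
Sdha and Cox6a1 hold the motif more than once in these stretches. A match of letters is a description and not a measured binding site. Cox6a1 lay above the median of the subunit genes at 0.46 and Sdha below it at 0.13.

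Other genes of the pathway, taken from lists of related genes, gave other values. The 12 subunits encoded in mitochondrial DNA with a ratio had a median log2(fold-change) of 0.46 with TMM and 0.25 with total counts. Of these, 11 had an interval above 0 (25.0% of all genes). Their depth was uneven. With TMM, mt-Co1 had 106103 and 130417 reads at 0.40, while mt-Co3 had 17 and 33 reads at 1.06 and mt-Atp8 had 7 and 4 at -0.71. Summed over the 12 genes, the log2(fold-change) was 0.42. The nuclear assembly factors, which help build the complexes but are not part of them, had a median of -0.06 over 29 genes. An interval above 0 was found for 1 of them (Ttc19, a complex III factor, at 0.33) and an interval below 0 for 1 (Cox15, a heme A synthase, at -0.35). Of all genes, 25.0% had an interval above 0 and 20.3% below 0. Of 48 assembly factor names, 30 matched the annotation. With their median length of 1368 bases these genes were also longer than the subunits, and the interval of most was wide, since they had between 5 and 486 reads in a library.

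Lists of genes close to the chain had medians from 0.08 to 0.29, and cytosolic ribosomal protein genes, outside it, had a median of 0.44. Cycs, which encodes cytochrome c, had 914 reads in 5 mM K+ against 1163 in 60 mM K+, with log2(fold-change) at 0.45 (0.32 to 0.58), while the 13 genes of cytochrome c and coenzyme Q synthesis had a median of 0.08. Coq3, a methyltransferase of coenzyme Q synthesis, was the lowest of these at -0.77 (97 and 53 reads), and Pdss1 the highest at 0.59 (35 and 49 reads). The 6 carriers of ATP, ADP and phosphate and porins with a ratio had a median of 0.29, led by the ADP/ATP carrier Slc25a5 at 0.48 (1891 and 2459 reads). The 18 citric acid cycle enzymes had a median of 0.17, with Idh2 highest at 0.45 and Pdhx lowest at -0.12. The median was 0.15 for 74 mitochondrial ribosomal protein genes and 0.44 for 81 cytosolic ribosomal protein genes. The latter were taken by symbol, which also brought in Rps19bp1, named as a binding protein of Rps19. Of these 81 genes, 76 had an interval above 0 (25.0% of all genes). These cytosolic genes are also short, with a median length of 715 bases.

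The 15 regulators of mitochondrial genes with a ratio had a median of 0.06, with 4 intervals above 0 (25.0% of all genes) and 4 below 0 (20.3% of all genes). These counts are near the shares of all genes, so the values below describe single genes and not the regulators as a group. Ppargc1a, which encodes the coactivator PGC-1alpha, had 69 and 79 reads, with log2(fold-change) at 0.30 (-0.19 to 0.78). Nrf1 had 301 and 287 reads at 0.03 (-0.21 to 0.27). Of the subunits of the GABP factor, Gabpa had 452 and 354 reads at -0.25 (-0.46 to -0.05), and Gabpb1 had 206 and 252 reads at 0.39 (0.12 to 0.66). Yy1 had 812 and 864 reads at 0.19 (0.05 to 0.33), and Creb1 had 633 and 472 reads at -0.32 (-0.50 to -0.15). Tfam, which packages and transcribes mitochondrial DNA, was the highest with 183 and 244 reads at 0.52 (0.23 to 0.80), and Hcfc1 the lowest with 1298 and 948 reads at -0.35 (-0.47 to -0.23).

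**Figure D4:**
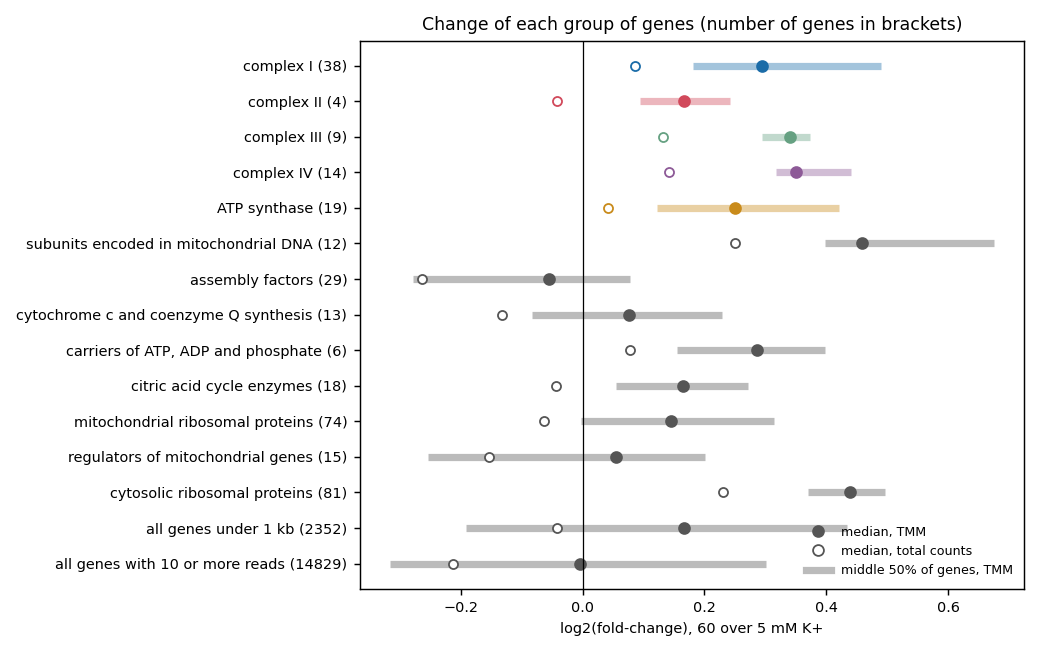
Median log2(fold-change) in 60 mM over 5 mM K+ of the genes of each complex and of the other lists, with TMM scaling (filled circles), the middle 50% of genes (bars) and total-count scaling (open circles). The 5 complexes have medians of 0.17 to 0.35 with TMM and of -0.042 to 0.14 with total counts, where complex II falls below 0, and all genes lie at -0.0047 and -0.21.

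The tissue carried its smooth muscle markers other than Tagln at high level, and markers of smooth muscle and of other cells moved between the libraries. Summed over Myh11, Acta2, Tagln, Cnn1 and Smtn, the smooth muscle level was 17193 FPKM in 5 mM K+ and 16787 FPKM in 60 mM K+. These 5 genes had a median log2(fold-change) of 0.20 with TMM and -0.013 with total counts. The FPKM levels are scaled by total counts, and the marker log2(fold-change) values are with TMM unless stated. Acta2 alone gave 12480 and 12366 FPKM, whereas Tagln had 31.0 and 35.5 FPKM. The values ran from -0.14 (-0.18 to -0.10) for Smtn to 0.40 (0.18 to 0.62) for Tagln. Over 5 endothelial markers the median was 0.28, or 0.066 with total counts, with summed levels of 1240 and 1465 FPKM. The values ran from -1.10 for Kdr to 0.83 for Cdh5. Adipocyte markers were lower in 60 mM K+, with a median of -0.97 over 6 genes, 5 of them below 0, and summed levels of 133 and 71.0 FPKM, and fibroblast markers stood at -0.33 over 4 genes, 1299 and 990 FPKM. Of the brown adipocyte markers, which belong to cells rich in mitochondria, Ucp1 had 2 and 5 reads, Elovl3 had 0 and 1, Cox8b had 5 and 2, and Cidea had 65 and 94 reads. The 4 pancreatic markers were higher in 60 mM K+ with a median of 3.78, where Cpb1 had 98 and 138 reads, Pnlip 2 and 61, Cela2a 3 and 51, and Prss2 3 and 29. For the remaining lists the medians were -0.31 for macrophage, 0.27 for striated muscle (0.063 with total counts), -0.35 for nerve and Schwann and -0.56 for red blood cell markers. In the same order, their summed reads were 196 and 143, 576 and 576, 1553 and 1288, and 648 and 403. The interval lay below 0 for 1 of 5 macrophage, 3 of 4 nerve and Schwann and 2 of 3 red blood cell markers (20.3% of all genes). It lay above 0 for 1 of 5 striated muscle markers (25.0% of all genes). The part of these cell types in the respiratory chain values was not tested.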

How the data were processed

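RNA-seq was analysed in 1 library of control (5 mM K+) and 1 library of depolarized (60 mM K+) mesenteric arteries. Per the labels and the study's methods, polyadenylated RNA was prepared with an unstranded kit, and the authors aligned reads to mm9 with TopHat2. The submitters' processing notes list TopHat2 2.0.12, HTSeq 0.6.1 and edgeR 3.0.8. The gene annotation is not given in the sources used here. The authors deposited raw read counts per gene, 10480918 and 11289598 in total. The authors also deposited FPKM values, scaled by total counts.

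Library sizes were scaled by TMM (edgeR 4.0.16, R 4.3.3), and log2(fold-change) was computed with 95% Clopper-Pearson intervals with scipy 1.17.1, for genes that reached 10 reads over both libraries. Intervals and floors cover counting error only. GENCODE vM1 (mm9) named 32601 of 55573 identifiers, and 2 subunit genes, Atp5md and Atp5mpl, were matched through RefSeq symbols. Named with full values were, in each complex, the highest and lowest genes with at least 50 reads, the extremes of FPKM, isoform families, catalytic subunits and genes at 0. Atp5s, Ndufb9, Ndufa8, Ttc19, Cox15 and the regulators other than Tfam and Hcfc1 are named outside that rule. The genes and lists were chosen with earlier results of these data known. For 1 subunit gene that the summaries include, the result is not reported here. Neighbours of Atp5d and the lengths given to Sdha and Atp5b were examined after values were seen. Copies of coding sequences were searched with BLAST 2.17.0. The length trend was a lowess fit (fraction 0.3, statsmodels 0.14.6). The intervals were tested on counts simulated with counting error only, the error they are built for. That test therefore says nothing about variation between mice. Alternatives were scaling by total counts, by median of ratios (DESeq2 1.42.0) and by upper quartile, removal of the length trend, other read minimums, FPKM with pseudocounts, 99% intervals and leaving out restricted isoforms; grouping Ndufa4 with complex IV and leaving out copies and overlaps were chosen after seeing the data.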

Additional observations from a re-analysis of the deposited data

How the results depend on the processing

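With total-count scaling, the median log2(fold-change) was 0.11 over all subunit genes, 0.086 for complex I, -0.042 for complex II, 0.13 for complex III, 0.14 for complex IV and 0.041 for ATP synthase. On that scale 0 genes lay above 0.5, 1 lay below -1 (Atp5o), 35 had a counting interval above 0 and 12 below 0. FPKM with a pseudocount of 0.1 or 1 gave 0.10, 0.086, -0.042, 0.13, 0.14 and 0.041 in the same order. Among named genes, total counts and both FPKM settings turned Atp5a1 to -0.015, Atp5b to -0.014, Cox7b to -0.0024, Ndufb10 to -0.010, Sdha to -0.083, Sdhc to -0.0011 and Uqcrc2 to -0.0033. Upper-quartile scaling moved the median of all subunit genes to 0.27 and of complex IV to 0.31. Removing the length trend gave 0.17 over all subunit genes, 0.15, 0.18 and 0.20 for complexes I, III and IV, 2 genes above 0.5, 1 below -1 (Atp5o), 5 intervals below 0 and -0.041 for Sdha. Counting Ndufa4 and Ndufa4l2 with complex IV placed its median at 0.33, below complex III at 0.34. With no minimum, 1 gene (Cox6a2) lay above 1 and 1 (Cox8b) below -1. The causes were not tested beyond the construction of each scale. Of the summary values under all alternatives, 71 stayed close, 30 moved and 3 changed sign. Without replicates no library could be left out. No paired analysis was possible because only a single library exists for either condition. Ratios of genes under about 100 reads, such as Atp5o, Cox6b2 and Ndufb2, are limited by depth.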
